A study of Homo sapiens with 6 samples.

Results

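Carbonic anhydrases were examined in RCC10, an established cell line of human clear cell renal carcinoma that lacks working VHL, through the 7 genes CA2, CA5B, CA8, CA9, CA11, CA12 and CA13, taken by symbol from a table of read counts for 19009 genes. The table holds all 7, of which 6 had at least 1 read in some library and could be tested. Messenger RNA was sequenced from 6 libraries in 3 groups of 2. HIF double-knockout cells carried lentiviral guide RNAs against HIF-1alpha and HIF-2alpha and were selected with puromycin, VHL-restored cells carried a lentivirus with VHL, and parental cells were labelled as controls; all were cultured in DMEM with 10% FBS. The labels do not say whether the engineered cells were clones or pools, and they name no non-targeting guide or empty vector for the parental cells, so transduction and selection cannot be told apart from the intended change.

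Carbonic anhydrases interconvert carbon dioxide and water with bicarbonate and a proton. In the kidney tubule they serve bicarbonate recovery and acid secretion, and in tumours the membrane-bound forms are known for acidifying the outside of the cell while the cytosol stays near neutral. In clear cell renal carcinoma, loss of VHL stabilizes the HIF alpha subunits, and CA9 and CA12 are long known as transcripts that VHL holds down in renal carcinoma cells.

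Library depth ranged from 22248126 to 29929116 counts. Levels are CPM, counts scaled to a common library size after TMM scaling, means are ± SD of 2 libraries, and tests are edgeR's quasi-likelihood test adjusted over 18273 genes, with a threshold of 0.05. EPAS1, the gene of HIF-2alpha, was at 46.2 ± 2.54 CPM in double-knockout, 366.1 ± 4.78 in VHL-restored and 350.5 ± 2.21 in parental cells, and HIF1A was at 30.6 ± 1.42 CPM in double-knockout, 295.2 ± 12.6 in VHL-restored and 71.2 ± 2.42 in parental cells. Both targeted transcripts were lower in double-knockout than in parental cells (adjusted p = 1.16e-26 for EPAS1 and 1.09e-15 for HIF1A, edgeR) but still present, and the counts do not measure protein. VHL was at 687 ± 50.3 CPM in VHL-restored and 39.1 ± 0.461 CPM in parental cells. The labelled cell type was checked against renal epithelial markers such as PAX8 and PAX2, and all 8 were counted in each group, but they moved apart. PAX8 was at 363.3 CPM in double-knockout, 407.3 in VHL-restored and 300.6 CPM in parental cells. CDH16, a kidney cadherin, fell 17.5-fold in double-knockout cells to 1.73 CPM, against 30.3 CPM in parental cells (adjusted p = 1.54e-22, edgeR), and PAX2 rose 9.31-fold there, to 15.4 CPM against 1.67 CPM in parental cells (adjusted p = 5.38e-18, edgeR). The summed level of the 8 ranged from 6054 to 8827 CPM over the libraries, mostly from VIM, which is also a mesenchymal gene. For other cell types, the 5 leukocyte markers summed to at most 0.427, 0.750 and 0.309 CPM in double-knockout, VHL-restored and parental cells. The 4 endothelial markers in the table summed to at most 0.311, 1.86 and 0.617 CPM in the same groups. PTPRC, CD3E, PECAM1 and KDR had no count in any group. The endothelial TEK was counted, at 0.219 CPM in double-knockout, 1.75 in VHL-restored and 0.423 CPM in parental cells. TEK rose 4.13-fold in VHL-restored cells (adjusted p = 1.71e-06, edgeR). The leukocyte marker CD79A also rose there, with 19 counts against 2 in parental cells (adjusted p = 0.0100, edgeR). No other leukocyte or endothelial marker was called over parental cells. The 4 fibroblast markers in the table summed to between 3.69 and 3.76 CPM in double-knockout, 22.8 and 24.4 CPM in VHL-restored, and 17.4 CPM in both parental libraries, mostly from COL1A1 and PDGFRB, while the defining marker DCN had no count in double-knockout and VHL-restored cells; their part in the results below was not tested. Separate cultures behind the libraries of a group are not stated, so each p-value reflects only how far these libraries differ, and that spread can be technical. In bulk RNA, fewer cells expressing a gene and less of its RNA per cell cannot be told apart.

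Of the 7 carbonic anhydrase genes, 5 fell in double-knockout cells, CA9 did not pass, and CA8 could not be tested. In that comparison 54.1% of all tested genes were called, 27.5% lower and 26.6% higher. The same 5 genes fell in VHL-restored cells, where 54.2% of all genes were called, 27.7% lower and 26.5% higher. Both comparisons use the same parental libraries. Set directly against each other, double-knockout cells had higher CA12, CA2 and CA13 and lower CA5B and CA11 than VHL-restored cells, with 56.0% of all genes called, 28.0% higher and 28.0% lower. The median log2 fold change over parental cells was taken over the 5 members with a mean of at least 3 counts a library, a limit set after seeing the data. Each median of 5 genes is the value of 1 member. It was -0.93 for double knockout, the value of CA5B, and -1.48 for VHL-restored cells, the value of CA11. CA11 had 1 count in double-knockout cells and passed the limit through the other groups. The calls of CA5B and CA11 have limits given below. All tested genes, without that limit, had a median of 0 in both comparisons.

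CA12, a carbonic anhydrase anchored in the plasma membrane with its active site outside the cell, had the largest difference between groups among the members with over 3 counts in each group. It stood at 162 and 155 CPM in the double-knockout libraries, 2.11 and 2.47 CPM in the VHL-restored libraries, and 472 and 447 CPM in the parental libraries. All 3 groups were separate: the parental libraries were high, the double-knockout libraries were intermediate and the VHL-restored libraries were near the bottom of the scale. CA12 fell 2.90-fold in double-knockout cells (log2 fold change -1.53 ± 0.06 SE, adjusted p = 4.45e-20, edgeR), which left 34.5% of the parental mean. In VHL-restored cells 0.498% of the parental mean was left (log2 fold change -7.65 ± 0.13 SE, adjusted p = 2.02e-32, edgeR). The direct test between the engineered lines gave a 69.2-fold higher level in double-knockout than in VHL-restored cells (log2 fold change 6.11, 95% confidence interval 5.84 to 6.39, adjusted p = 1.30e-29, edgeR). CA12 was called in the same direction in all 3 comparisons under each of the 14 alternative settings.

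**Figure D1:**
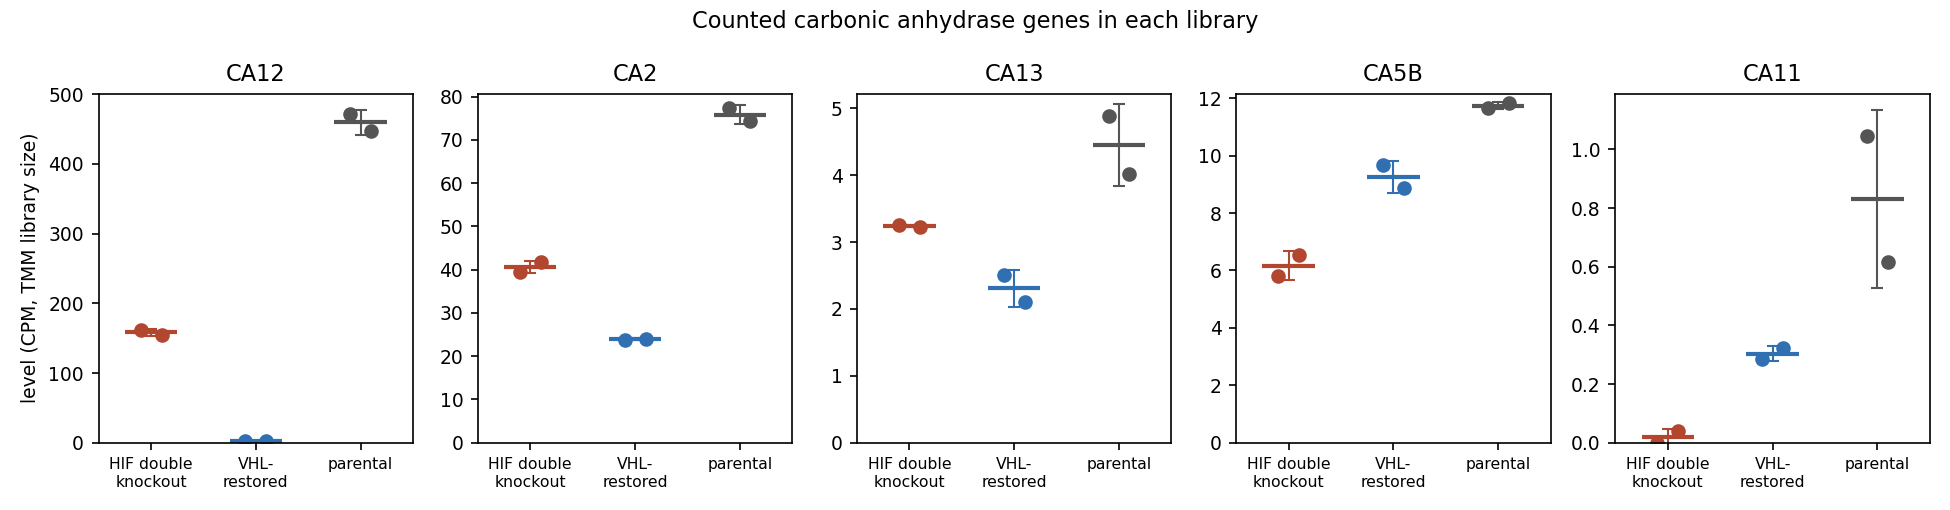
Levels of the 5 counted carbonic anhydrase genes (CPM, linear axes from 0, a separate scale for each gene) in HIF double-knockout, VHL-restored and parental cells; points are libraries, horizontal lines are means and error bars are the SD of 2 libraries. CA12, CA2 and CA13 are lowest in VHL-restored cells, whereas CA5B and CA11 are lowest in double-knockout cells.

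CA9, the other membrane-anchored member and the one whose protein is used in pathology as a marker of clear cell renal carcinoma, was almost uncounted. It had 0 and 0 counts in double-knockout, 0 and 0 in VHL-restored, and 0 and 1 in parental libraries. That single count over all 6 libraries corresponds to 0.00612 CPM, with an exact 95% Poisson interval whose upper end is 0.0341 CPM and which covers counting error only. No fold is given, since each group is under the floor of 3 counts, between 0.0536 and 0.0573 CPM for a pair of libraries. In GENCODE release 29, 38.5% of the exon bases of CA9 lie opposite exons of ARHGEF39, so reads there may be lost or misassigned if strand was not used, and 61.5% do not. ARHGEF39 itself was at 4.74 ± 0.658 CPM in double-knockout, 11.7 ± 0.438 in VHL-restored and 9.37 ± 0.0917 CPM in parental cells.

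The stretch upstream of the gene start is shown for CA12, the member that moved most, and for CA9, because both are known HIF-responsive genes of which 1 was abundant and the other nearly uncounted here. The sequences are from RefSeq (GRCh38.p14), and each holds the 250 bases before the start, read along the gene. CA12 lies on the minus strand (chr15:63381847-63382096) and CA9 on the plus strand (chr9:35673678-35673927). Capitals mark the core of the hypoxia response element, searched on both strands as the letters ACGTG and, separately, as the letters GCGTG. On the opposite strand the first reads CACGT, and the second is then seen as CACGC. Neither motif contains the other, and a palindromic site matches the first on both strands.
CA12: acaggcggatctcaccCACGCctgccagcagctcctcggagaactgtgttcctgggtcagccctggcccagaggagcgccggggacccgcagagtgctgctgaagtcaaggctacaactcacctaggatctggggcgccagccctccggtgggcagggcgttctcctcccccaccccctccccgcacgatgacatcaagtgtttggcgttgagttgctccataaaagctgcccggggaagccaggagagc
CA9: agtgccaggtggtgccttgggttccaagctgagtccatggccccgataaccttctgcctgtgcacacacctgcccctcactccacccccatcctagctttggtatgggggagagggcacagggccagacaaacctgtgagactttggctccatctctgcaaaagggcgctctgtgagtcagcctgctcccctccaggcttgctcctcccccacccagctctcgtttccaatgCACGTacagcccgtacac
CA9 holds an ACGTG on the opposite strand at position -18, counted to its leftmost base with -1 just before the start. CA12 holds a GCGTG on the opposite strand at -234 and another at position 40 after the start, outside the stretch printed. Over windows that reach 50 bases past the start, 21.4% of 35116 RefSeq promoters hold ACGTG, 36.5% hold GCGTG and 48.4% hold either. A match is a description of letters and not of binding. RefSeq promoters were matched for 3 members, and in the third, that of CA5B, there are 6 matches to GCGTG before the start and 1 to ACGTG after it.

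CA2, the highly active cytosolic enzyme whose inherited loss causes renal tubular acidosis with osteopetrosis, fell in both engineered lines. It stood at 39.6 and 41.7 CPM in double-knockout, 23.8 and 24.0 CPM in VHL-restored, and 77.4 and 74.3 CPM in parental libraries. The groups did not overlap, and the order from high to low was parental, double-knockout, VHL-restored, as for CA12. CA2 fell 1.87-fold in double-knockout cells (log2 fold change -0.90 ± 0.07 SE, adjusted p = 1.96e-12, edgeR) and 3.17-fold in VHL-restored cells (log2 fold change -1.67 ± 0.08 SE, adjusted p = 2.09e-18, edgeR). Its level was 1.70-fold higher in double-knockout than in VHL-restored cells (adjusted p = 4.94e-10, edgeR), beside the 69.2-fold difference of CA12; the difference between these 2 genes was not tested.

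CA13, the second cytosolic member, was far less counted, with 59 to 145 counts per library. It stood at 3.25 and 3.22 CPM in double-knockout, 2.504 and 2.11 CPM in VHL-restored, and 4.89 and 4.01 CPM in parental libraries. The order of the groups was that of CA2, without overlap. CA13 fell 1.95-fold in VHL-restored cells (log2 fold change -0.96 ± 0.17 SE, adjusted p = 1.08e-05, edgeR). The 1.39-fold fall in double-knockout cells (adjusted p = 0.0113, edgeR) was lost with DESeq2 (adjusted p = 0.144) and without double-knockout replicate 1, double-knockout replicate 2 or parental replicate 1 (adjusted p = 0.0739, 0.0693 and 0.227, edgeR). The 1.40-fold higher level in double-knockout than in VHL-restored cells (adjusted p = 0.0188, edgeR) was lost with DESeq2 (adjusted p = 0.139) and without double-knockout replicate 1, double-knockout replicate 2 or VHL-restored replicate 2 (adjusted p = 0.0969, 0.0798 and 0.140, edgeR), so these neighbours in the order are not firmly separated.

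**Figure D2:**
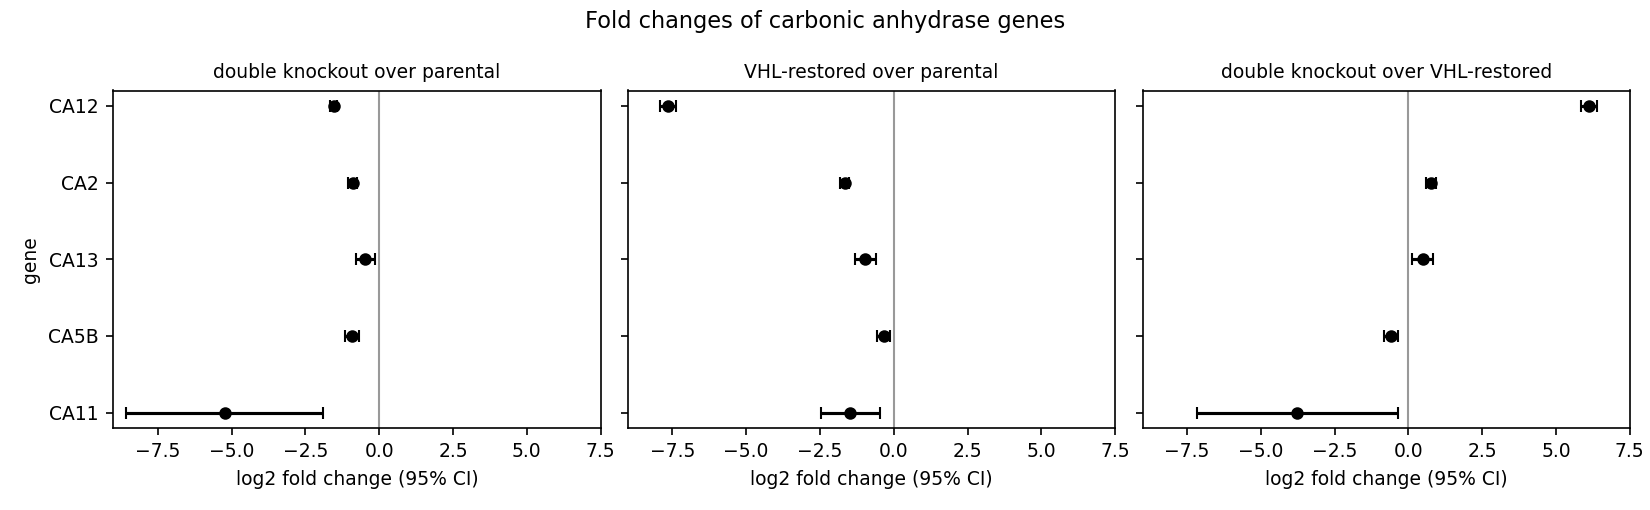
Log2 fold changes of the 5 counted members (points, bars are 95% confidence intervals of the edgeR fit) for double knockout over parental, VHL-restored over parental, and double knockout over VHL-restored cells. The CA12 value of 6.11 in the right panel is the largest difference between the engineered lines, and CA5B and CA11 lie on the other side of 0. The fitted values of CA11 against double-knockout cells rest on 1 count there and depend on the prior count.

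CA5B, the mitochondrial enzyme that supplies bicarbonate to carboxylation reactions of the matrix, had the reverse order of the engineered lines. It stood at 5.81 and 6.53 CPM in double-knockout, 9.66 and 8.86 CPM in VHL-restored, and 11.7 and 11.8 CPM in parental libraries. The double-knockout libraries were the lowest and the VHL-restored libraries lay just under the parental ones. CA5B fell 1.91-fold in double-knockout cells (log2 fold change -0.93 ± 0.12 SE, adjusted p = 2.70e-08, edgeR) and was 1.504-fold lower there than in VHL-restored cells (adjusted p = 6.81e-05, edgeR). The 1.27-fold fall in VHL-restored cells (log2 fold change -0.34 ± 0.11 SE, adjusted p = 0.00763, edgeR) was lost with DESeq2 (adjusted p = 0.0749) and without VHL-restored replicate 2, parental replicate 1 or parental replicate 2 (adjusted p = 0.0725, 0.0662 and 0.0685, edgeR).

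CA5B has a transcribed pseudogene, CA5BP1, beside it on the X chromosome, named here after its counts were seen. CA5BP1 stood at 16.4 and 14.9 CPM in double-knockout, 7.33 and 9.22 CPM in VHL-restored, and 12.6 and 13.1 CPM in parental libraries, so its order ran from double-knockout, the highest, to VHL-restored, the lowest. It was 1.89-fold higher in double-knockout than in VHL-restored cells (adjusted p = 1.42e-08, edgeR), the opposite of CA5B, and fell 1.55-fold in VHL-restored cells (adjusted p = 1.97e-05, edgeR). Its 1.23-fold rise in double-knockout cells (adjusted p = 0.0179, edgeR) was lost with total-count scaling (adjusted p = 0.0511), with DESeq2 (adjusted p = 0.0993), and without double-knockout replicate 1, parental replicate 1 or parental replicate 2 (adjusted p = 0.212, 0.201 and 0.113, edgeR). Of the reads of the pair, CA5B took 26.1% and 30.5% in double-knockout libraries (exact Clopper-Pearson 95% intervals 22.8% to 29.7% and 26.7% to 34.5%), 56.8% and 49.0% in VHL-restored libraries, and 48.1% and 47.5% in parental libraries. Summed as 1 gene the pair stood at 22.3 and 21.4 CPM in double-knockout, 17.0 and 18.1 CPM in VHL-restored, and 24.2 and 24.9 CPM in parental libraries. The sum did not pass in double-knockout cells (log2 fold change -0.17, 95% confidence interval -0.34 to 0.0048, adjusted p = 0.0968, edgeR) and fell in VHL-restored cells (log2 fold change -0.48, adjusted p = 1.48e-05, edgeR). Between the engineered lines the sum was higher in double-knockout than in VHL-restored cells (log2 fold change 0.32, adjusted p = 0.00228, edgeR), the reverse of CA5B alone. How the authors counted reads shared by the pair is not stated. In GENCODE release 29, 2.71% of the stretches of 50 bases in the longest CA5B transcript, of 6835 bases, also occur in a CA5BP1 transcript, and the share reaches 31.0% in the short CA5B-208 transcript of 529 bases. The overlapping antisense gene INE2 covers 22% of the CA5B exon bases and had 6 counts over all libraries.

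**Figure D3:**
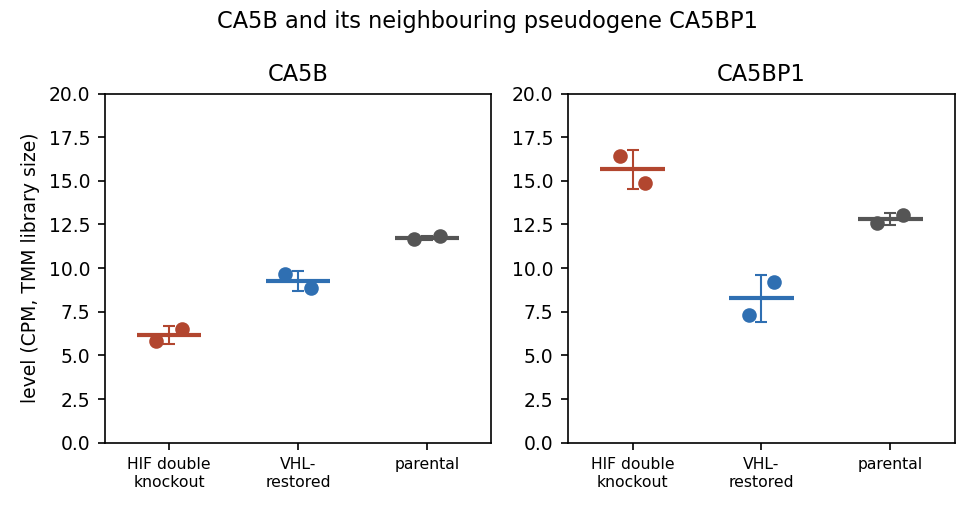
Levels (CPM, linear axes from 0) of CA5B and the pseudogene CA5BP1 in HIF double-knockout, VHL-restored and parental cells; points are libraries, lines are means and error bars are the SD of 2 libraries. CA5B is lowest and CA5BP1 highest in double-knockout cells.

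CA8 and CA11 belong to the carbonic anhydrase-related proteins, which have lost catalytic activity; CA8 is known to bind an inositol trisphosphate receptor in neurons. CA8 had no count in any of the 6 libraries, for which the floor of 3 counts over all of them is 0.0184 CPM and the upper end of the exact 95% Poisson interval is 0.0226 CPM. CA11 had 0 and 1 counts in double-knockout, 8 and 9 in VHL-restored, and 31 and 14 in parental libraries, or at most 1.04 CPM. The order was parental, VHL-restored, double-knockout, as for CA5B. CA11 fell in double-knockout cells (adjusted p = 1.84e-06, edgeR), where the ratio of the parental to the double-knockout level was 47.3 with a counting interval of 8.06 to 1908. With 1 count in that group the fitted log2 fold change depends on the prior count and was -4.30 without double-knockout replicate 1 and -7.56 without double-knockout replicate 2, where no count is left. CA11 also fell in VHL-restored cells, 2.78-fold (adjusted p = 0.00730, edgeR), a call lost with DESeq2 (adjusted p = 0.113) and without parental replicate 1 (adjusted p = 0.200, edgeR). It was lower in double-knockout than in VHL-restored cells (adjusted p = 0.00244, edgeR), with a ratio of VHL-restored to double-knockout of 16.7 and a counting interval of 2.62 to 698, a call lost without double-knockout replicate 1 (log2 fold change -2.83, adjusted p = 0.0595, edgeR), while the fitted value without double-knockout replicate 2 was -6.08.

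Levels of different genes can be compared once divided by exon length, here the merged exons of GENCODE release 29, which may differ from the transcripts in these cells and from the annotation the authors counted on. Per kilobase, CA12 was at 21.7 ± 0.697 CPM in double-knockout, 0.313 ± 0.0344 in VHL-restored and 62.8 ± 2.42 CPM in parental cells. CA2 was at 19.1 ± 0.706 CPM per kilobase in double-knockout, 11.3 ± 0.0994 in VHL-restored and 35.7 ± 1.02 in parental cells, so CA12 stood above CA2 in double-knockout and parental cells and below it in VHL-restored cells. CA5B was between 0.682 and 1.39, CA13 between 0.381 and 0.884 and CA11 at most 0.503 CPM per kilobase over the 6 libraries. The members together came to 42.2 ± 0.0782 CPM per kilobase in double-knockout, 13.2 ± 0.0292 in VHL-restored and 101 ± 3.66 in parental cells. Of this sum CA12 made up 51.5% ± 1.75 in double-knockout, 2.37% ± 0.255 in VHL-restored and 62.1% ± 0.141 in parental cells, and CA2 made up 45.4% ± 1.59 in double-knockout, 85.1% ± 0.564 in VHL-restored and 35.3% ± 0.271 in parental cells. The mitochondrial CA5B made up 1.72% ± 0.137 in double-knockout, 8.22% ± 0.518 in VHL-restored and 1.36% ± 0.0624 in parental cells, although its own level was highest in parental cells.

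**Figure D4:**
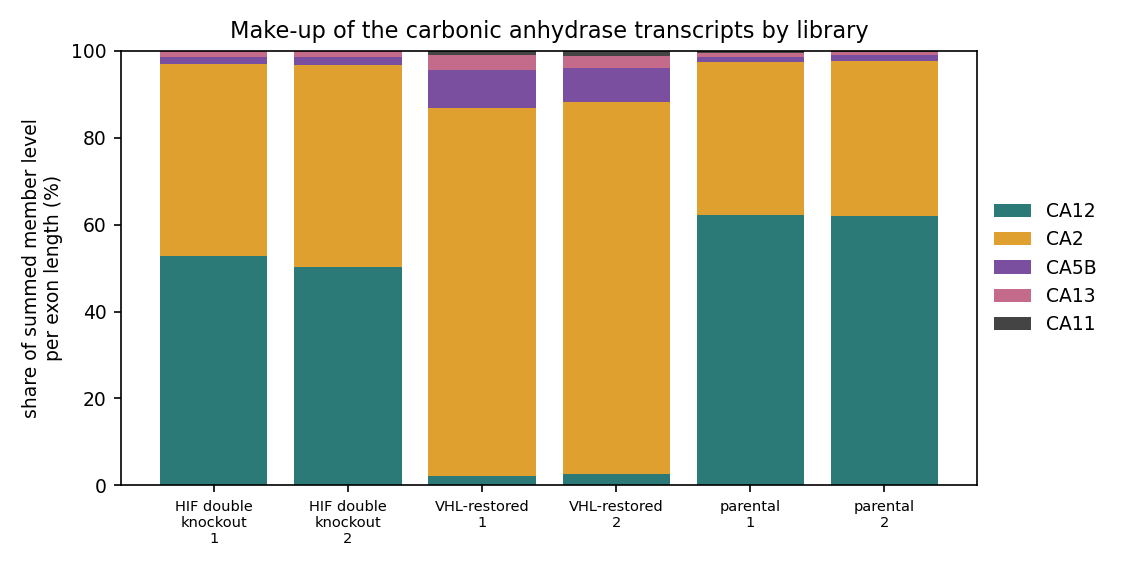
Share of each member (percent, stacked from 0 to 100) in the summed CPM per exon length of the 7 genes, for each library of HIF double-knockout, VHL-restored and parental cells. CA12 fills 50.2% or more in double-knockout and parental libraries and at most 2.55% in VHL-restored libraries, where CA2 fills 84.8% and 85.5%. CA8, which had no count, and CA9, which made up at most 0.0268% in a library, are not drawn.

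Genes most like the members in pattern were sought by the distance between log2(CPM + 1) values centred on each gene's mean, over the 6 libraries and 12686 other genes with a mean of at least 1 CPM. Closest to CA12 was COL5A1, a fibrillar collagen chain, at a distance of 0.747, with 56.3 ± 3.05 CPM in double-knockout, 0.0358 CPM (1 count in each library) in VHL-restored and 100.2 ± 1.93 CPM in parental cells. INHBB, an inhibin and activin subunit, and C10orf10 followed at distances of 2.46 and 2.95. INHBB was at 69.9 ± 7.03 CPM in double-knockout, 2.04 ± 0.204 in VHL-restored and 77.3 ± 0.282 CPM in parental cells. Its difference between double-knockout and parental cells did not pass (adjusted p = 0.0983, edgeR), unlike that of CA12. C10orf10 was at 19.2 ± 0.302 CPM in double-knockout, 2.04 ± 0.454 in VHL-restored and 102.9 ± 2.95 CPM in parental cells. Closest to CA2 were PRKAG2, a regulatory subunit of the AMP-activated kinase, PLXNA3 and ARSD, at distances from 0.120 to 0.168. Closest to CA5B were C5, OSCP1 and SNTB1 (0.0713 to 0.0853) and closest to CA13 were FAM189B, MCM3AP and KLF5 (0.143 to 0.170). Distances are smaller for genes that move little, so they rank neighbours of 1 member only.

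Other carbonic anhydrase genes added little. Of 8 listed, 6 were examined, CA1 and CA6 were not analysed here, and CA5A and CA10 had no count. CA3, a muscle enzyme, had 7 counts in double-knockout, 7 in VHL-restored and 2 in parental cells, CA4 had 1 in double-knockout, 2 in VHL-restored and 1 in parental cells, and CA14 had 1 in double-knockout and 0 in the other groups. CA7, a cytosolic form known from brain, had 5 counts in VHL-restored cells and none in the other groups. Of these 4 tested genes, 0 had an unadjusted p under 0.05 in any comparison, and the lowest adjusted p was 0.111, for CA7 in double-knockout over VHL-restored cells (edgeR).

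Transport partners of these enzymes were read from lists. Many, but not all, SLC4A and SLC26A proteins carry bicarbonate across membranes. Beside each count stand the shares of all tested genes, 26.6% higher and 27.5% lower in double-knockout and 26.5% higher and 27.7% lower in VHL-restored cells, and medians are over the list genes with a mean of at least 3 counts a library, against a median of 0 over all genes. Of 15 genes listed as bicarbonate transporters, 2 rose and 4 fell in double-knockout cells and 7 rose and 3 fell in VHL-restored cells. Over the 11 counted, 6 rose and 3 fell in VHL-restored cells, the remaining rise being of a gene below the count limit. The median log2 fold change over the 11 was -0.02 for double knockout and 0.42 for VHL-restored cells. SLC4A4, the sodium bicarbonate cotransporter of the proximal tubule, was at 23.7 ± 0.461 CPM in double-knockout, 11.9 ± 1.25 in VHL-restored and 50.8 ± 2.25 CPM in parental cells, and fell 2.14-fold in double-knockout (adjusted p = 3.08e-13, edgeR) and 4.26-fold in VHL-restored cells (adjusted p = 3.04e-19, edgeR). It was higher in double-knockout than in VHL-restored cells (log2 fold change 0.99, adjusted p = 8.55e-11, edgeR), so its order of groups was that of CA12 and CA2. SLC4A2, an anion exchanger, fell 1.18-fold in double-knockout (adjusted p = 8.24e-04, edgeR) and 1.88-fold in VHL-restored cells (adjusted p = 2.44e-14, edgeR). SLC4A11, a membrane transporter of the corneal endothelium, went the other way, at 4.73 ± 0.452 CPM in double-knockout, 41.6 ± 1.72 in VHL-restored and 1.46 ± 0.0743 CPM in parental cells, and SLC4A3, an anion exchanger, rose 1.61-fold in double-knockout and 1.77-fold in VHL-restored cells.

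Of 11 proton and lactate exporters in the table, 4 rose and 2 fell in double-knockout cells, where 26.6% of all genes were called higher and 27.5% lower, and 3 rose and 3 fell in VHL-restored cells, where 26.5% were called higher and 27.7% lower. Over the 7 counted, the median log2 fold change was 0.17 for double knockout and -0.19 for VHL-restored cells. SLC9A2, a sodium-proton exchanger, was at 10.1 ± 0.507 CPM in double-knockout, 4.72 ± 0.0473 in VHL-restored and 2.99 ± 0.457 CPM in parental cells, and rose 3.41-fold in double-knockout and 1.60-fold in VHL-restored cells. SLC16A3, the lactate exporter of glycolytic cells, fell 1.87-fold in VHL-restored cells (adjusted p = 2.29e-14, edgeR) and 1.14-fold in double-knockout cells, a call lost without double-knockout replicate 2, parental replicate 1 or parental replicate 2 (adjusted p = 0.141, 0.0644 and 0.128, edgeR). SLC16A7, another monocarboxylate carrier, fell 6.81-fold in double-knockout and 2.55-fold in VHL-restored cells.

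Of 23 subunits of the vacuolar proton pump in the table, 9 rose and 9 fell in double-knockout cells and 5 rose and 11 fell in VHL-restored cells, beside 54.1% and 54.2% of all genes called in either direction. Over the 22 counted, the median log2 fold change was 0.05 for double knockout and -0.32 for VHL-restored cells. ATP6V1C2 was at 3.41 ± 0.127 CPM in double-knockout, 1.98 ± 0.431 in VHL-restored and 1.11 ± 0.141 CPM in parental cells, and its 1.76-fold rise in VHL-restored cells was lost without VHL-restored replicate 1 or parental replicate 2 (adjusted p = 0.0928 and 0.0721, edgeR). ATP6V0E2 was at 17.0 ± 1.17 CPM in double-knockout, 8.58 ± 0.854 in VHL-restored and 20.7 ± 0.406 CPM in parental cells, and fell 2.41-fold in VHL-restored cells (adjusted p = 2.90e-12, edgeR). ATP6V1E2 fell 2.48-fold in double-knockout cells (adjusted p = 5.56e-08, edgeR) and ATP6V0A4 fell 2.55-fold in VHL-restored cells (adjusted p = 2.44e-05, edgeR). Of 7 acid and bicarbonate sensors in the table, 1 rose and 2 fell in double-knockout cells, beside 26.6% of all genes called higher and 27.5% lower, and 1 rose and 1 fell in VHL-restored cells, beside 26.5% and 27.7%. The acid-sensing channel gene ASIC1 fell 6.62-fold in double-knockout cells (adjusted p = 1.40e-09, edgeR). Its 1.40-fold fall in VHL-restored cells (adjusted p = 0.0467, edgeR) held under 4 of 14 alternatives, and its adjusted p was 0.289 with DESeq2 and 0.270 without parental replicate 2. ASIC3 fell 1.98-fold in double-knockout cells (adjusted p = 4.83e-04, edgeR). In VHL-restored cells ASIC3 was not called (log2 fold change 0.14, adjusted p = 0.568, edgeR). ASIC2 rose 11.6-fold in VHL-restored cells (adjusted p = 2.90e-07, edgeR), to 1.38 ± 0.228 CPM. Parental cells were at 0.106 ± 0.0880 CPM of ASIC2, with 5 and 1 counts. The ASIC2 rise was 28.5-fold without parental replicate 1 and 8.02-fold without parental replicate 2.

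**Figure D5:**
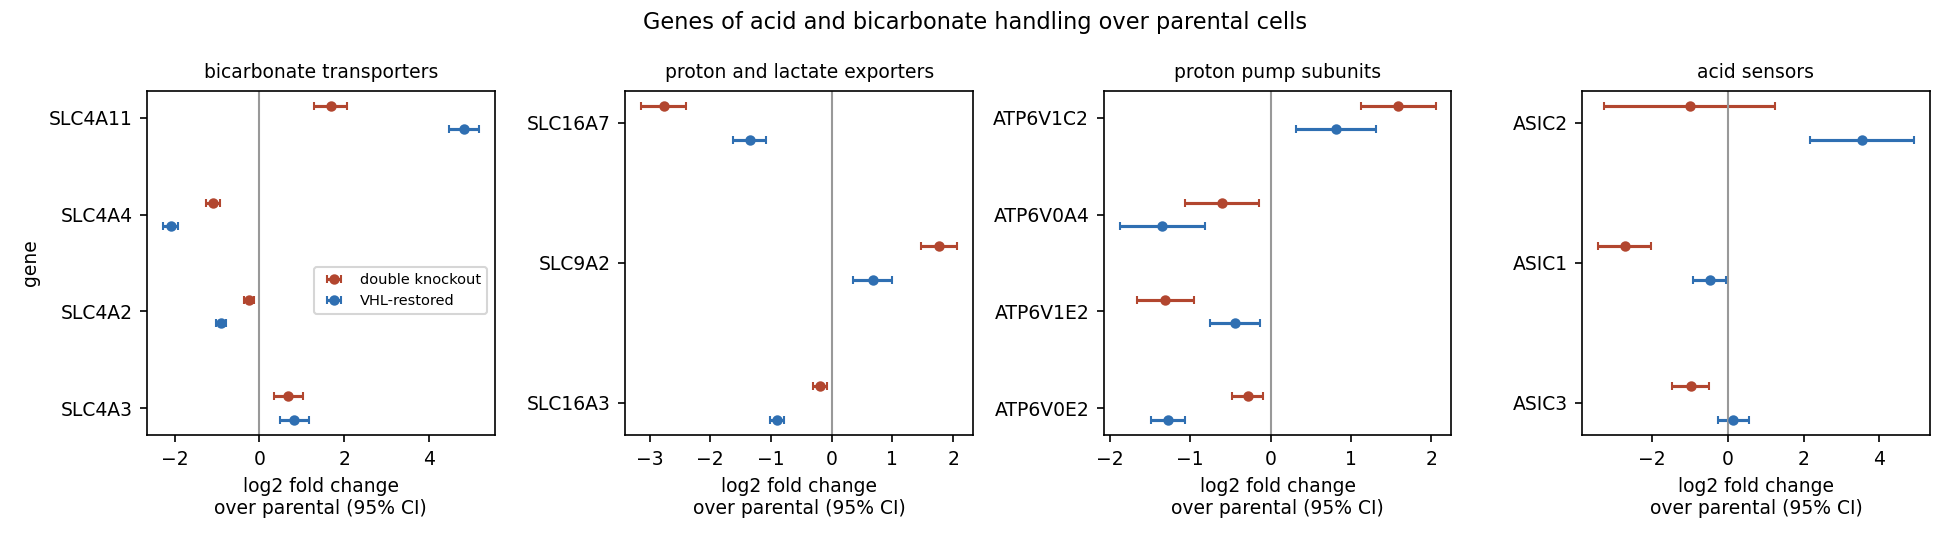
Log2 fold changes over parental cells (points, bars are 95% confidence intervals of the edgeR fit) for the 14 genes of the lists that are described, chosen for the largest called changes, in HIF double-knockout (red, upper) and VHL-restored cells (blue, lower); each panel has its own scale. SLC4A4 lies below 0 in both lines, and SLC9A2 lies above 0 in both.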

How the data were processed

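The authors deposited 1 table of counts, whole-number reads per gene symbol for 19009 genes in 6 columns. The table is named as normalized; all values are whole and totals are unequal, and it was read as raw counts. The submitters' processing notes list HISAT2 2.2.1 beside featureCounts 2.0.8, Trimmomatic 0.39, FastQC 0.74 and limma 3.58.1, and builds hg38 and hg19. The sources used here do not give the build, annotation and strand setting behind the counts.

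The 18273 genes that any library counted were fitted with edgeR 4.0.16 in R 4.3.3: TMM scaling (factors 0.977 to 1.02), 3 group means over 6 libraries, prior count 0.125, Benjamini-Hochberg adjustment over all genes per comparison. SE and 95% intervals are Wald values of that fit. The code was tested on simulated data. Counting intervals and floors of 3 counts cover counting error only. Alternatives were RLE, median and total-count scaling, filterByExpr, DESeq2 1.42.0, limma-voom 3.58.1, a fit of the 2 groups compared, a replicate block, and each library left out. Where a library is left out, the lone library of its group is assumed to vary like the other groups.

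The members and lists were chosen with earlier results of these data known. Named beside the 7 members are HIF1A, EPAS1 and VHL, other carbonic anhydrases, up to 4 genes of each list with the largest called change (at least 1 CPM in a group), and the 3 nearest patterns of each member. CA5BP1, ARHGEF39 and INE2 were added as neighbours after counts were seen. ARNT and the remaining named markers are not described, and 2 list genes are not reported here.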

Additional observations from a re-analysis of the deposited data

How the results depend on the processing

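Of the 5 counted members, CA12 and CA2 were called in the same direction in all 3 comparisons, and CA5B in double-knockout cells against both other groups, under all 14 alternatives. The count of members called in VHL-restored over parental cells was 5, fell to 3 with DESeq2, and ranged from 3 to 5 when each library was left out; in double-knockout over VHL-restored cells it was 5 and ranged from 3 to 5, lowest without double-knockout replicate 1. In double-knockout over parental cells it was 5 and ranged from 4 to 5. The calls lost are those of CA13, CA5B and CA11 given in the report. Counting CA5B and CA5BP1 as 1 gene, an alternative chosen after seeing the data, reversed the difference between the engineered lines: CA5B had a log2 fold change of -0.59 in double-knockout over VHL-restored cells and the sum had 0.32. CA5BP1 counts are then part of the value.

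The replicate numbers were not treated as pairs: deviations of same-numbered libraries correlated at 0.20 between double-knockout and parental, -0.01 between VHL-restored and parental and 0.02 between double-knockout and VHL-restored cells. With the number as a replicate block, 10112, 10147 and 10458 genes were called in double-knockout over parental, VHL-restored over parental, and double-knockout over VHL-restored cells, against 9888, 9898 and 10225 without it, and no member's call changed. Without any 1 library these 3 counts ranged from 7974 to 10134, 7891 to 9671 and 9019 to 9679. The scalings moved fold changes by at most 0.05 on the log2 scale. CA9, CA8 and the other sparse carbonic anhydrase genes are limited by depth. CA9 rests on 1 count over all 6 libraries, and CA11 on at most 31 counts in a library.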
